A study of Arabidopsis thaliana with 24 samples.

Results

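Phytochromes are the red and far-red light receptors of Arabidopsis, and PHYTOCHROME INTERACTING FACTORs (PIFs) are the bHLH transcription factors to which the active receptors bind. The 10 genes described here are the 5 phytochrome genes PHYA (AT1G09570), PHYB (AT2G18790), PHYC (AT5G35840), PHYD (AT4G16250) and PHYE (AT4G18130) and the 5 PIF genes PIF1 (AT2G20180), PIF3 (AT1G09530), PIF4 (AT2G43010), PIF5 (AT3G59060) and PIF7 (AT5G61270). They were chosen by their gene names and loci, with earlier results of these data known. All 10 were found among the 32627 genes of the array. The study followed the transcripts of detached leaves, the third or the fourth of the rosette, during dark-induced senescence. The leaves came from 21-d-old plants grown under 16 h of light and 8 h of dark, and were taken at 12 days after emergence (DAE). They were floated on 3 mM MES buffer in the dark and harvested at 0, 1, 2 and 3 days after treatment (DAT), at the same time of the subjective day. Each of the 3 genotypes had 2 replicate arrays at each of the 4 time points, 24 arrays in all.

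The ein2/ore3 mutant is ethylene insensitive and carries the allele ein2-44/ore3-1 of EIN2, the membrane protein through which the ethylene signal passes. The ahk3/ore12 mutant carries ore12-1, a gain-of-function allele of the cytokinin receptor gene AHK3 that gives a constitutive cytokinin response. Col is the wild type. Leaves of all 3 genotypes were detached and floated in the same way, each mutant was represented by 1 allele, and the leaves at 0 DAT had not been floated. No detached leaves kept in the light were arrayed, so darkness, detachment and floating cannot be told apart in any change from 0 DAT.

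Red light converts a phytochrome to its active form, which enters the nucleus and starts the phosphorylation of PIFs and the breakdown of many of them. Far-red light or long darkness returns the receptor to its inactive form, and such PIF proteins then build up and act on genes of growth, greening and senescence. PHYA is the light-labile receptor of far-red light, whereas PHYB to PHYE are light stable, with PHYB as the main receptor of red light. PIF1 and PIF3 are best known as repressors of greening in dark-grown seedlings, PIF4, PIF5 and PIF7 as promoters of growth under shade or warmth, and PIF3, PIF4 and PIF5 also as promoters of leaf senescence in the dark. Because the activity of both families is largely set at the level of the protein, the transcript levels given here do not measure receptor or PIF activity.

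All values are the log2 intensities per gene that the authors deposited, on which 1 unit is a 2-fold difference. The number of arrays limits the precision. Pearson's correlation across genes between replicate arrays lay between 0.965 and 0.9948. Array medians lay between 9.02 and 9.16, apart from 8.91 on ein2/ore3 2 DAT replicate 2, and the median of all genes in ein2/ore3 minus Col at 2 DAT was -0.17. Member values lay between 7.60 and 14.74, whereas the lowest value of an array was 4.64 or less, and probes of different genes differ, so levels are compared within a gene only. EIN2 (13.20 to 13.72) and AHK3 (12.59 to 13.25) transcripts were measured on every array and did not pass the test in a mutant against Col (lowest adjusted p by limma 0.123 and 0.311). At 0 DAT the mesophyll markers RBCS1A, LHCB2.1, CA1 and RCA stood above at least 97.4% of genes. The root marker WER lay at 5.11 to 5.57, above 3.01% of genes, but the root marker PYK10 at 6.19 to 9.47, above 31.9%. The epidermal marker PDF1 was low, at 6.06 to 6.53, whereas the epidermal markers ATML1 and FDH stood above 85.7% and 98.2% of genes. The 12 arrays of each replicate number shared 1 slide, and where the slide as a block changes a call its value is given. The methods call the 2 replicates biological, but nothing says whether they came from separate plantings, so p-values measure the spread between these arrays.

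Before dark incubation no member passed a test between genotypes. At 0 DAT none of the 10 genes passed the test in ein2/ore3 against Col, where 0.288% of all genes were called, and none passed in ahk3/ore12 against Col, where 0.0245% were called (limma contrasts over all 24 arrays, FDR below 0.05). At an unadjusted p below 0.05 there were 1 in ein2/ore3 and 0 in ahk3/ore12. PHYA was lower in ein2/ore3 (13.10 and 13.26) than in Col (13.38 and 13.44), a difference of -0.23 with a 95% interval from -0.44 to -0.02 and an adjusted p of 0.713. The widest intervals at 0 DAT were those of PIF7, from -1.15 to 0.28 in ein2/ore3 and from -0.95 to 0.48 in ahk3/ore12, and of PIF3, from -1.03 to 0.08 and from -0.85 to 0.26. Differences of that size at 0 DAT could not be detected with 2 arrays a group.

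PHYA and PHYB, the receptors with the best-known roles in far-red and red light, rose in the dark in all 3 genotypes by 1 DAT. In the mutants they stayed high to 3 DAT, whereas in Col both were back near their starting level. PHYA had 13.10 and 13.26 in ein2/ore3 at 0 DAT, then 14.41 and 14.33 at 1 DAT, 14.47 and 14.31 at 2 DAT, and at 3 DAT 14.26 and 14.20. In ahk3/ore12 it had 13.31 and 13.32, then 14.21 and 14.41, 14.43 and 14.42, and 14.24 and 14.16. In Col it had 13.38 and 13.44, then 14.19 and 14.24, 13.92 and 14.02, and 13.47 and 13.38. At 3 DAT every mutant array was above every Col array by more than the gap between replicates. The changes of PHYA since 0 DAT at 1, 2 and 3 DAT were 1.19, 1.21 and 1.05 in ein2/ore3, 1.00, 1.11 and 0.88 in ahk3/ore12, against 0.80, 0.56 and 0.01 in Col (standard error of each 0.0992). All but the last passed the test, and the Col change at 3 DAT had an interval from -0.20 to 0.23 (adjusted p 0.93).

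PHYB had 12.36 and 12.36 in ein2/ore3 at 0 DAT, then 13.51 and 13.50, 13.53 and 13.44, and 13.41 and 13.36 at 3 DAT. In ahk3/ore12 it had 12.26 and 12.16, then 13.38 and 13.38, 13.26 and 13.23, and 13.33 and 13.27. In Col it had 12.40 and 12.22, then 13.24 and 13.37, 12.99 and 13.16, and 12.42 and 12.55. The Col arrays of 3 DAT thus stood just above those of 0 DAT, whereas those of the mutants stood about 1 unit above theirs. PHYB rose by 1.15, 1.12 and 1.03 in ein2/ore3 and by 1.17, 1.04 and 1.09 in ahk3/ore12, and so stayed about 2-fold higher. In Col it rose by 1.00 at 1 DAT and 0.76 at 2 DAT, and the change at 3 DAT was 0.18 (interval -0.03 to 0.38, adjusted p 0.183). The arrays hold RNA of whole leaves, so fewer cells of a type and less RNA per cell cannot be told apart.

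**Figure D1:**
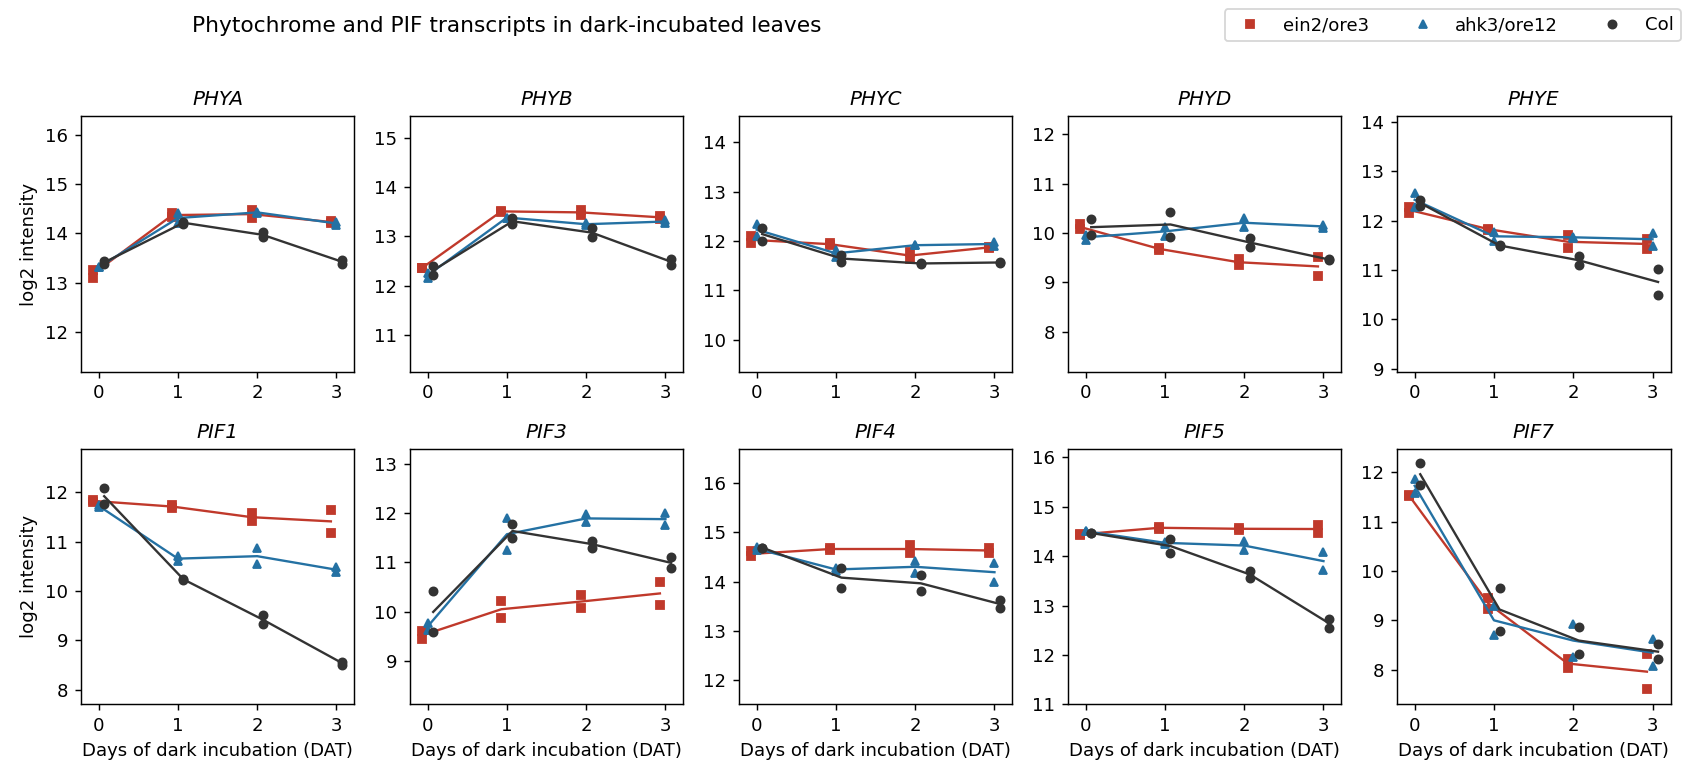
Log2 intensity (vertical axis, with the same span of log2 units in every panel) of the 10 genes against days of dark incubation (horizontal axis) in ein2/ore3 (squares), ahk3/ore12 (triangles) and Col (circles). Each point is 1 array and each line joins the means of 2 arrays. PIF7 fell in all genotypes. In ein2/ore3 at 3 DAT the means of PIF4 and PIF5 were 14.63 and 14.55, and that of PIF1 was 11.41, against 11.82 at 0 DAT. PIF3 lay between 9.44 and 10.60 on every ein2/ore3 array.

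The other light-stable phytochromes moved down or little. PHYE fell in all 3 genotypes, most in Col. It had 11.63 and 11.43 in ein2/ore3 at 3 DAT against 12.28 and 12.16 at 0 DAT, 11.49 and 11.76 in ahk3/ore12 against 12.57 and 12.28, and 10.49 and 11.03 in Col against 12.42 and 12.30. In each genotype the arrays of 3 DAT lay below those of 0 DAT, and the 2 Col arrays of 3 DAT were the lowest of all 24. The changes at 1, 2 and 3 DAT were -0.39, -0.64 and -0.69 in ein2/ore3, -0.74, -0.76 and -0.80 in ahk3/ore12, against -0.86, -1.16 and -1.60 in Col (standard error 0.167), and all but the first passed. The fall at 2 DAT in ein2/ore3 was lost without ein2/ore3 0 DAT replicate 1 (adjusted p 0.0611) or ein2/ore3 2 DAT replicate 2 (0.0874), and that at 1 DAT in ahk3/ore12 without ahk3/ore12 0 DAT replicate 1 (0.0537).

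PHYD, the closest relative of PHYB, fell in ein2/ore3 at 2 and 3 DAT (changes of -0.71 and -0.80) and in Col at 3 DAT (-0.66). In ahk3/ore12 its changes were 0.12, 0.30 and 0.22 at 1, 2 and 3 DAT and none passed (intervals -0.24 to 0.48, -0.06 to 0.65 and -0.14 to 0.58). At 3 DAT it had 9.51 and 9.13 in ein2/ore3, 10.10 and 10.16 in ahk3/ore12, against 9.47 and 9.45 in Col. The ahk3/ore12 arrays stood above the others, and those of ein2/ore3 and Col overlapped. The fall in Col was lost without Col 0 DAT replicate 1 (adjusted p 0.0739) or with only the 8 Col arrays in the fit (0.0577), whereas the change of -0.45 in ein2/ore3 at 1 DAT passed with the slide as a block (adjusted p 0.0239, against 0.071 without).

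PHYC had the narrowest range of the 10 genes, 0.69 between its highest and lowest condition means. It fell in ahk3/ore12 by 0.48 at 1 DAT, and in Col its changes of -0.50, -0.59 and -0.57 at 1, 2 and 3 DAT all passed. The calls at 2 DAT in ein2/ore3 (-0.32, adjusted p 0.0415) and in ahk3/ore12 (-0.31, adjusted p 0.0451) were each lost in 15 of 24 fits without 1 array, and the ein2/ore3 call also under median centring (0.259) and quantile normalization (0.0824). The ahk3/ore12 change at 3 DAT, -0.29, passed only with the slide as a block (adjusted p 0.0408, against 0.0589). Leaving out Col 0 DAT replicate 1 ended the Col call at 1 DAT (0.0599), and leaving out ahk3/ore12 0 DAT replicate 1 (0.071) or ahk3/ore12 1 DAT replicate 2 (0.0504) ended that of ahk3/ore12.

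Among the transcription factors, PIF7, a factor of the shade response, fell most, and it fell in every genotype. It had 11.54 and 11.51 in ein2/ore3 at 0 DAT, then 9.45 and 9.23 at 1 DAT, 8.22 and 8.03 at 2 DAT, and at 3 DAT 8.32 and 7.60. In ahk3/ore12 it had 11.87 and 11.58, then 9.30 and 8.70, 8.92 and 8.26, and 8.62 and 8.07. In Col it had 12.18 and 11.74, then 9.65 and 8.79, 8.87 and 8.31, and 8.21 and 8.52. After 0 DAT the 3 genotypes overlapped at 1 and 3 DAT, and at 2 DAT the ein2/ore3 arrays lay just below the others. The changes of PIF7 at 3 DAT were -3.56 in ein2/ore3, -3.38 in ahk3/ore12 and -3.59 in Col (standard error 0.336), falls of 11.8-, 10.4- and 12.1-fold. Most of that fall had taken place by 1 DAT, when the changes were -2.19, -2.72 and -2.74. All 9 changes passed the test in every alternative that was run. At 3 DAT the means of the 2 transcript variants of PIF7 lay between 6.76 and 7.75, against lowest array values of 4.64 or less. Whether that low signal limited the size of the falls was not tested.

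PIF1, a repressor of chlorophyll synthesis and seed germination, was the member whose dark change depended most on the genotype. It had 11.80 and 11.85 in ein2/ore3 at 0 DAT, then 11.74 and 11.68, 11.57 and 11.42, and 11.65 and 11.17 at 3 DAT. In ahk3/ore12 it had 11.71 and 11.74, then 10.70 and 10.61, 10.54 and 10.87, and 10.38 and 10.48. In Col it had 12.08 and 11.76, then 10.23 and 10.24, 9.33 and 9.51, and 8.51 and 8.57. From 1 DAT on the genotypes did not overlap and stood in the order ein2/ore3, ahk3/ore12, Col from high to low. In ein2/ore3 the changes of -0.12, -0.33 and -0.42 did not pass, the last with an adjusted p of 0.0502, which became 0.0481 with the slide as a block. PIF1 fell in ahk3/ore12, with changes of -1.07, -1.02 and -1.29, and more in Col, with -1.68, -2.5 and -3.38, a 10.4-fold fall at 3 DAT (standard error 0.153).

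PIF3, the founding member of the family, was the 1 PIF gene that rose in the dark, and the mutants differed from each other in it. At 0 DAT it had 9.44 and 9.60 in ein2/ore3, 9.78 and 9.62 in ahk3/ore12, against 10.41 and 9.58 in Col. At 1 DAT it had 10.22 and 9.88 in ein2/ore3, 11.90 and 11.24 in ahk3/ore12, against 11.78 and 11.49 in Col. At 3 DAT it had 10.60 and 10.14 in ein2/ore3, 11.99 and 11.76 in ahk3/ore12, against 11.10 and 10.88 in Col. From 1 DAT on every ein2/ore3 array was below every array of the other genotypes at the same time point. In ein2/ore3 the changes at 1, 2 and 3 DAT were 0.53, 0.69 and 0.85, of which the last passed (adjusted p 0.0193), and with the slide as a block the first 2 passed as well (0.0383 and 0.00735, against 0.183 and 0.0591). PIF3 rose by 1.87, 2.19 and 2.18 in ahk3/ore12 and by 1.64, 1.38 and 1.00 in Col (standard error 0.26). The ein2/ore3 rise was lost without ein2/ore3 0 DAT replicate 1 (0.106), 3 DAT replicate 1 (0.183) or 0 DAT replicate 2 (0.0512), and the Col rise at 3 DAT without Col 3 DAT replicate 1 (0.0529) or Col 0 DAT replicate 2 (0.112).

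PIF4 and PIF5, the pair best known for shade-avoidance growth and for promoting senescence in the dark, passed no test of a dark change in ein2/ore3 and fell in Col. PIF5 had 14.63 and 14.47 in ein2/ore3 at 3 DAT against 14.45 and 14.43 at 0 DAT, 13.72 and 14.08 in ahk3/ore12 against 14.51 and 14.50, and 12.73 and 12.55 in Col against 14.47 and 14.47. The 3 genotypes were within 0.08 at 0 DAT and did not overlap at 3 DAT. The changes of PIF5 in ein2/ore3 were 0.13, 0.12 and 0.11 (intervals -0.14 to 0.41, -0.16 to 0.39 and -0.16 to 0.38). It fell by 0.61 in ahk3/ore12 at 3 DAT, and in Col at 2 and 3 DAT, with changes of -0.84 and -1.83.

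PIF4 had 14.68 and 14.58 in ein2/ore3 at 3 DAT against 14.51 and 14.61 at 0 DAT, 14.00 and 14.38 in ahk3/ore12 against 14.70 and 14.63, and 13.47 and 13.62 in Col against 14.69 and 14.69. The arrays of 3 DAT did not overlap between genotypes, and in ein2/ore3 they overlapped with those of 0 DAT. Its changes in ein2/ore3 were 0.10, 0.10 and 0.07, with the last interval from -0.26 to 0.40. In ahk3/ore12 the change of -0.47 at 3 DAT passed (adjusted p 0.0271), and that of -0.42 at 1 DAT only with the slide as a block (0.0374, against 0.063). In Col PIF4 fell, with changes of -0.61, -0.72 and -1.14 at 1, 2 and 3 DAT (standard error 0.156). Without ahk3/ore12 0 DAT replicate 1, 3 DAT replicate 1 or 0 DAT replicate 2 the call at 3 DAT was lost (0.124, 0.316 and 0.0729), and the Col call at 1 DAT was lost without Col 1 DAT replicate 1 (0.0928) or with only Col arrays in the fit (0.0718).

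Counted over the 10 genes, 3 rose and 3 fell at 3 against 0 DAT in ein2/ore3, where 32.4% of all genes were called, 17.8% as higher and 14.6% as lower. In ahk3/ore12 3 rose and 5 fell (34.3% of all genes, 20.4% higher and 13.9% lower), and in Col 1 rose and 7 fell (39.4%, 20.2% higher and 19.3% lower). At 1 DAT 2 rose and 1 fell in ein2/ore3 (22.8%). In ahk3/ore12 3 rose and 4 fell then (25.9%), and in Col 3 rose and 5 fell (28.3%). With the slide as a block 5 were called in ein2/ore3 at 1 DAT, and the 22.8% does not apply to that fit. At 2 DAT 2 rose and 4 fell in ein2/ore3 (30.8%), 3 rose and 4 fell in ahk3/ore12 (30.1%), and 3 rose and 6 fell in Col (34.6%). With 10 genes, little can be read from shares against these backgrounds, least of all from 3 of 10 beside 22.8% in ein2/ore3 at 1 DAT. The median change of the 10 genes at 3 DAT was -0.04 in ein2/ore3, -0.38 in ahk3/ore12 and -0.90 in Col, beside 0.02, -0.06 and 0.14 over all genes. Each of the 62 called dark changes had the same sign on both slides.

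Over the whole Col time course, 9 of the 10 genes passed limma's moderated F-test on the 8 Col arrays, where 27.8% of all genes were called. PIF1 (adjusted p 0.000168), PIF5 (0.00105) and PIF7 (0.00215) were the clearest. PHYD did not pass (0.121), or did so with the slide as a block (0.0354). Without 1 Col array the number was between 6 and 9. The call of PHYC (adjusted p 0.0425) was lost in each of these 8 fits and under median centring (0.0658). Those of PIF3 were lost without either Col array of 2 or 3 DAT (0.0593 to 0.0637), those of PIF4 without either Col array of 0 or 3 DAT (0.0749 to 0.114), and that of PHYE without Col 0 DAT replicate 1 (0.054).

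The comparison of each mutant with Col at the same time point asks when a gene departs from the wild type. Both mutants were set against the same Col arrays, so an unusual Col array moves both. In ein2/ore3, PIF1 and PIF4 were higher and PIF3 was lower than in Col by 1 DAT (3 of 10 genes, with 13.3% of all genes called). PHYA, PHYB and PIF5 joined them as higher at 2 DAT (6 of 10, 20.3%), and at 3 DAT the higher genes were PHYA, PHYB, PHYE, PIF1, PIF4 and PIF5 (6 of 10, with 25.1% of all genes called and 14.4% called higher). In ahk3/ore12 no member was called at 1 DAT (0.631% of all genes), PHYA, PHYC, PIF1 and PIF5 were higher at 2 DAT (4 of 10, 12%), and all but PIF7 were higher at 3 DAT (9 of 10, with 23.1% called and 14.8% called higher). Among the 10 genes at 1 DAT in ahk3/ore12, PIF1 was the 1 whose interval excluded zero (0.42, interval 0.09 to 0.75, adjusted p 0.342). PIF3 in ein2/ore3 was the only member below Col in any called difference.

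The sizes grew with time for PIF1 and PIF5. PIF1 was higher than in Col by 1.47, 2.07 and 2.87 at 1, 2 and 3 DAT in ein2/ore3, which is 7.31-fold at 3 DAT, and by 1.28 and 1.89 at 2 and 3 DAT in ahk3/ore12 (standard error 0.153). PIF5 was higher by 0.93 and 1.91 at 2 and 3 DAT in ein2/ore3 and by 0.59 and 1.26 in ahk3/ore12. PIF4 was higher by 0.58, 0.69 and 1.08 in ein2/ore3 and by 0.64 at 3 DAT in ahk3/ore12. Of the receptors, PHYA, PHYB and PHYE were higher at 3 DAT in both mutants, by 0.81 and 0.77 for PHYA, 0.90 and 0.81 for PHYB, and 0.77 and 0.87 for PHYE in ein2/ore3 and ahk3/ore12. PHYD was 0.67 higher in ahk3/ore12, and its difference in ein2/ore3 was -0.14 (adjusted p 0.686). PIF3 differed from Col in ein2/ore3 by -1.58 and -1.17 at 1 and 2 DAT and by -0.62 at 3 DAT, where it passed only with the slide as a block (adjusted p 0.0155, against 0.104), and it was higher by 0.88 at 3 DAT in ahk3/ore12 (adjusted p 0.0228). With the block PHYD was also called lower in ein2/ore3 at 1 and 2 DAT (0.0206 and 0.0428) and PHYC higher at 3 DAT (0.0408).

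Single arrays decided several of these counts. Without Col 2 DAT replicate 1 the calls in ein2/ore3 at 2 DAT numbered 3 in place of 6, and those in ahk3/ore12 at 2 DAT 1 in place of 4, which was also the number without ahk3/ore12 2 DAT replicate 2. The ein2/ore3 calls lost were PHYA (adjusted p 0.0725), PHYB (0.0925) and PIF4 (0.0779), and the call of PIF3 there was lost without ein2/ore3 2 DAT replicate 2 (0.0516). Without Col 3 DAT replicate 1 or ahk3/ore12 3 DAT replicate 2 the calls in ahk3/ore12 at 3 DAT numbered 5 in place of 9, and PHYC, PHYD, PIF3 and PIF4 were the ones lost in both fits. The PHYC call in ahk3/ore12 at 2 DAT (0.37, adjusted p 0.0435) was lost in 14 of 24 fits without 1 array (0.0513 to 0.212), among them fits without an array of ein2/ore3, and under median centring (0.0942). At 3 DAT PHYC (0.0626 to 0.131) and PIF3 (0.0558 to 0.142) were lost without any 1 of the 4 arrays of Col and ahk3/ore12 at 3 DAT, and PHYC also under median centring (0.0586). Without Col 1 DAT replicate 2 the calls in ein2/ore3 at 1 DAT numbered 5 in place of 3, and that of PIF4 was lost without Col 1 DAT replicate 1 (0.14) or either ein2/ore3 array of 1 DAT (0.0944 and 0.124). PHYE in ein2/ore3 at 3 DAT was lost without Col 3 DAT replicate 1 (0.0624).

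Whether the dark change itself differed between a mutant and Col was tested as an interaction, the change since 0 DAT in the mutant minus that in Col. PIF1, PIF5, PHYA, PHYB and PHYE differed in both mutants at 3 DAT, each being higher relative to 0 DAT than in Col. In addition, PIF4 differed in ein2/ore3, and PHYD and PIF3 differed in ahk3/ore12. The counts at 1, 2 and 3 DAT were 1, 4 and 6 of 10 in ein2/ore3 (5.67%, 11.1% and 16.2% of all genes called) and 0, 2 and 7 of 10 in ahk3/ore12 (0.0429%, 5.67% and 13.3%). At 1 DAT in ahk3/ore12 PIF1 alone had an unadjusted p below 0.05 (0.61, p 0.0126 by limma). At 3 DAT 10.5% of all genes were called higher in ein2/ore3 and 9.96% in ahk3/ore12. All 20 called differences of members were positive on both slides. The median over the 10 genes at 3 DAT was 0.88 in each mutant, beside -0.08 in ein2/ore3 and -0.09 in ahk3/ore12 over all genes.

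**Figure D2:**
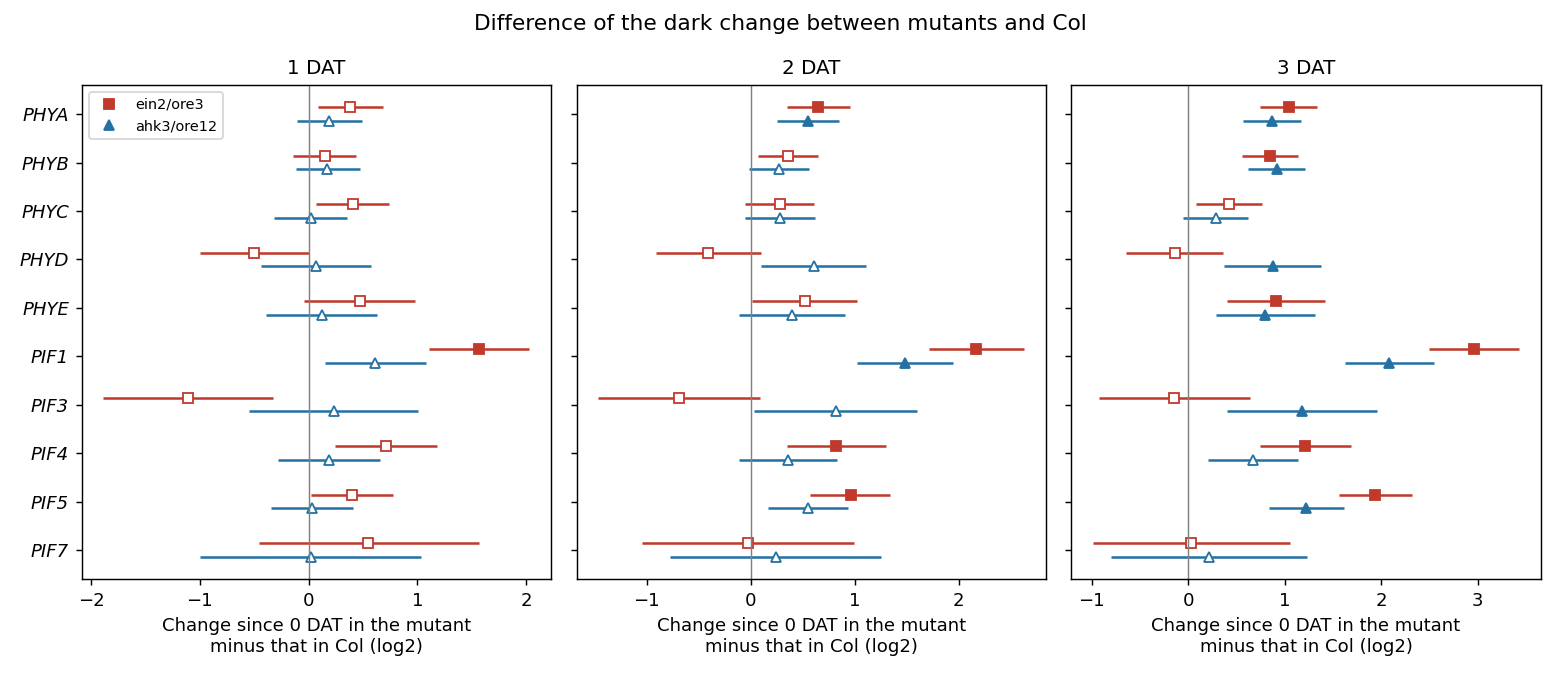
Change since 0 DAT in the mutant minus that in Col, on the log2 scale (horizontal axis), for the 10 genes at 1, 2 and 3 DAT in ein2/ore3 (squares) and ahk3/ore12 (triangles), with 95% intervals from limma. Filled points passed the FDR of 0.05. PIF1 reached 2.96 in ein2/ore3 and 2.08 in ahk3/ore12 at 3 DAT, and the intervals of PIF7 crossed zero throughout.

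For PIF1 the difference of change was 1.57, 2.17 and 2.96 in ein2/ore3 at 1, 2 and 3 DAT and 1.48 and 2.08 in ahk3/ore12 at 2 and 3 DAT (adjusted p at 3 DAT 1.14e-06 and 4.2e-05, standard error 0.216). These PIF1 calls held without any 1 array. PIF5 followed with 1.94 in ein2/ore3 and 1.22 in ahk3/ore12 at 3 DAT (6.96e-06 and 0.00053), where the changes were 0.11 in ein2/ore3, -0.61 in ahk3/ore12 and -1.83 in Col. For PIF4 the difference at 3 DAT was 1.21 for ein2/ore3 (0.00145) and 0.67 for ahk3/ore12, the second called only with the slide as a block (0.0328, against 0.0591). For PIF7 it was 0.03 for ein2/ore3 (interval -0.99 to 1.05) and 0.21 for ahk3/ore12 (interval -0.80 to 1.23). A mutant change that was 2-fold higher than that of Col was thus within the error. Whether the low PIF7 signal at 3 DAT limited these differences was not tested. For PIF3 in ein2/ore3 the difference of change was -1.11 at 1 DAT, called only with the block (0.0135, against 0.0976), and -0.15 at 3 DAT (interval -0.93 to 0.64). The block also brought the PIF4 difference at 1 DAT in ein2/ore3 past the threshold (0.0396, against 0.076). With it 3 genes in place of 1 were called there, and the shares of all genes above do not apply to that fit.

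PHYA differed by 0.65 and 1.04 in ein2/ore3 and by 0.55 and 0.87 in ahk3/ore12 at 2 and 3 DAT, and PHYB by 0.85 and 0.92 at 3 DAT in ein2/ore3 and ahk3/ore12. The PHYA and PHYB calls at 3 DAT and that of PHYA at 2 DAT in ein2/ore3 held without any 1 array. PHYA at 2 DAT in ahk3/ore12 was lost without any 1 of the 8 arrays of Col and ahk3/ore12 at 0 and 2 DAT (adjusted p 0.0591 to 0.133), and PIF4 at 2 DAT in ein2/ore3 (0.82) in 5 of 24 fits, those without either array of ein2/ore3 or Col at 0 DAT or without Col 2 DAT replicate 1 (0.0516 to 0.11). PHYE at 3 DAT was lost in 4 of 24 fits in ein2/ore3 (0.91, 0.0612 to 0.0811 in those fits) and in 7 in ahk3/ore12 (0.80, 0.0511 to 0.183), and PHYD in ahk3/ore12 (0.88) in 6 (0.0519 to 0.119). PIF3 in ahk3/ore12 (1.18, adjusted p 0.0465) was lost in 15 of 24 fits (0.0551 to 0.227) and under median centring (0.065). The count in ahk3/ore12 at 3 DAT was 4 without replicate 2 of ahk3/ore12 at 0 or 3 DAT or replicate 1 of Col at 0 or 3 DAT.

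Set against each other, the mutants differed in PIF1, PIF3, PHYD and PIF5. The numbers called were 0, 2, 3 and 4 of 10 at 0, 1, 2 and 3 DAT, beside 0.408%, 9.34%, 10.4% and 10.3% of all genes, and at 0 DAT no member had an unadjusted p below 0.05 by limma. PIF1 was higher in ein2/ore3 than in ahk3/ore12 by 1.05, 0.79 and 0.98 at 1, 2 and 3 DAT, and the differences of PIF3 were -1.52, -1.69 and -1.51. The PIF3 arrays at 2 DAT were 10.34 and 10.07 in ein2/ore3, against 11.97 and 11.81 in ahk3/ore12, and at no time after 0 DAT did the mutants overlap. PHYD was lower in ein2/ore3 at 2 and 3 DAT (-0.80 and -0.81), and PIF5 was higher by 0.65 at 3 DAT (adjusted p 0.00386). For PHYA, PHYB, PHYC and PHYE no difference between the mutants was called, and the intervals at 3 DAT were -0.18 to 0.24, -0.12 to 0.29, -0.31 to 0.17 and -0.45 to 0.26. Without ahk3/ore12 2 DAT replicate 1 the number at 2 DAT was 1 in place of 3, with PIF1 at 0.0734 and PHYD at 0.0813, and PHYD was also lost without ein2/ore3 2 DAT replicate 2 (0.0593). At 3 DAT PIF5 was lost without ahk3/ore12 3 DAT replicate 1 (0.0752) and PHYD without ein2/ore3 3 DAT replicate 2 (0.0767).

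As a single value per gene over all time points, the genotype term of a model with genotype and time passed for 5 of 10 genes in ein2/ore3 (19.2% of all genes called). PIF1 (1.58 above Col, standard error 0.305), PIF5 (0.79), PIF4 (0.56) and PHYB (0.39) were higher and PIF3 was lower, at -0.96 (adjusted p 0.00363, 0.0164, 0.0135, 0.0181 and 0.00231). In ahk3/ore12 2 of 10 passed (8.97%), PIF1 with 0.85 (0.0394) and PHYC with 0.24 (0.0476). This second count was not stable, since without 1 array it ran from 0 to 5, PIF1 was lost in 11 and PHYC in 13 of 16 fits, and PHYE passed with the slide as a block (0.0481, against 0.0507). Differences that open only late, as in ahk3/ore12, are spread over 4 time points by this term.

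PIF4, PIF5 and PIF7 were each measured as 2 transcript variants with their own probe sets, and each of the other members as 1. The variants of PIF4 and of PIF5 changed by similar amounts, whereas those of PIF7 both fell but with a wider range of the ratio between them. PIF5 variants 1 and 2 changed by 0.09 and 0.13 from 0 to 3 DAT in ein2/ore3, by -0.59 and -0.61 in ahk3/ore12, and by -1.82 and -1.84 in Col. PIF4 variants changed by 0.16 and -0.02 in ein2/ore3, by -0.52 and -0.42 in ahk3/ore12, and by -1.14 and -1.15 in Col. Those of PIF7 changed by -3.15 and -3.83 in ein2/ore3, by -3.19 and -3.50 in ahk3/ore12, and by -3.47 and -3.65 in Col. Over the arrays the log2 ratio of variant 2 to variant 1 lay between -0.15 and 0.36 for PIF4, between -0.06 and 0.28 for PIF5, and between -0.06 and 1.35 for PIF7. Probe sequences were not analysed here, so whether probes of variants or of related genes share targets was not tested.

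**Figure D3:**
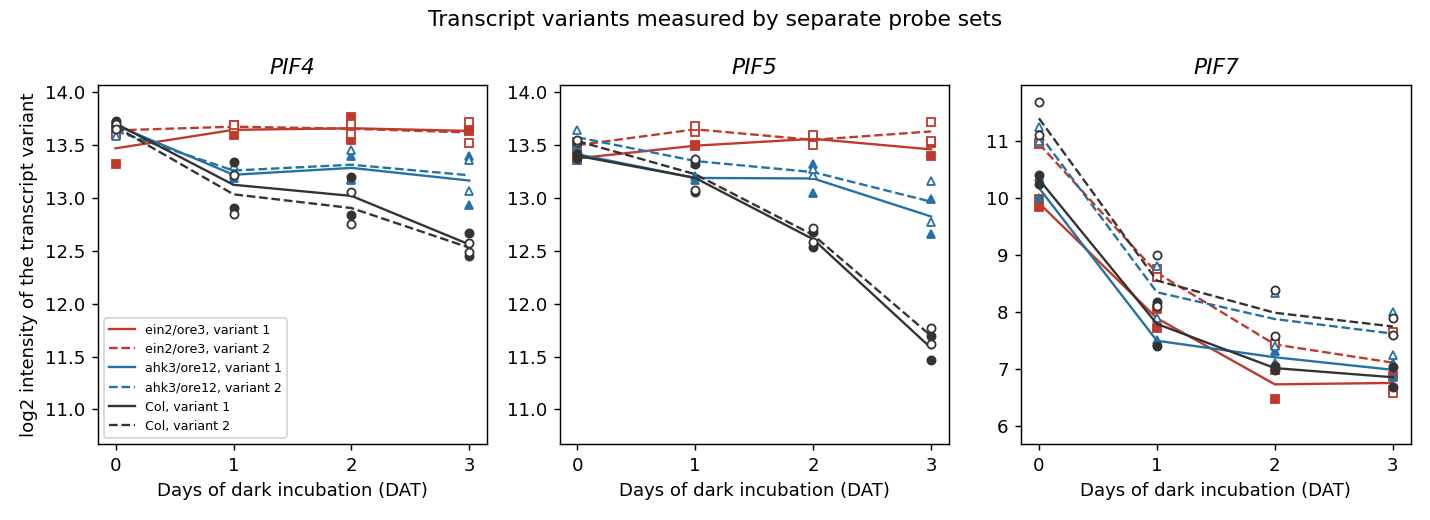
Log2 intensity of the 2 transcript variants (vertical axis; the PIF7 panel has its own range) of PIF4, PIF5 and PIF7 against days of dark incubation in ein2/ore3, ahk3/ore12 and Col. Points are single arrays and lines join means, solid with filled points for variant 1 and dashed with open points for variant 2. The variants of PIF5 changed together, by -1.82 and -1.84, in Col by 3 DAT.

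The members also differed in how widely they ranged. The range of the 12 condition means was 4.00 for PIF7, 3.38 for PIF1, 2.37 for PIF3, 1.93 for PIF5, 1.67 for PHYE, 1.29 for PHYB, 1.25 for PHYA, 1.14 for PIF4, 0.88 for PHYD and 0.69 for PHYC, beside a median of 0.86 over all genes. In order of level, PIF1 ran from 11.92 in Col at 0 DAT through the 3 later ein2/ore3 conditions (11.71, 11.50 and 11.41), the 3 later ahk3/ore12 conditions (10.65, 10.70 and 10.43) and the 3 later Col conditions (10.23, 9.42 and 8.54). The arrays of neighbouring conditions overlapped only at Col and ein2/ore3 at 0 DAT, ahk3/ore12 at 0 DAT and ein2/ore3 at 1 DAT, ein2/ore3 at 2 and 3 DAT, and ahk3/ore12 at 1 and 2 DAT. For PIF3 the 5 highest conditions, all of ahk3/ore12 and Col after 0 DAT (11.89, 11.88, 11.63, 11.57 and 11.37), overlapped with their neighbours, Col at 3 DAT (10.99) stood apart, and the 4 next, ein2/ore3 at 3, 2 and 1 DAT (10.37, 10.20 and 10.05) and Col at 0 DAT, overlapped again. For PIF7 the 9 conditions after 0 DAT overlapped with their neighbours from 9.34 down to 7.96.

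Across the 12 condition means, PIF1 and PIF4 had a Pearson's r of 0.98, PHYA and PHYB 0.97, PIF4 and PIF5 0.93, PIF1 and PIF5 0.93, and PHYC and PHYE 0.91. PHYB and PIF7 had -0.78, and PIF1 and PIF3 -0.67. These values are descriptions over points that share arrays and slides. Of the 13303 genes with a range of at least 1, those most like PIF7 over the 12 means were AMK2 (0.997), AT4G14230 (0.996) and NDA1 (0.994). Those most like PIF1 were AT1G17200 (0.995), UMAMIT44 (0.994) and AT2G36430 (0.992), and those most like PIF3 were AT1G67328 (0.994), AT1G36060 (0.990) and RLP1 (0.984).

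The genes around the phytochromes and PIFs were taken as 6 lists, also chosen with earlier results of these data known. Up to 4 genes of each are named by a rule of size. Their counts at 3 against 0 DAT stand beside 32.4% of all genes called in ein2/ore3 (17.8% higher and 14.6% lower), 34.3% in ahk3/ore12 (20.4% and 13.9%) and 39.4% in Col (20.2% and 19.3%). At 3 DAT against Col, the share of all genes called higher was 14.4% for ein2/ore3 and 14.8% for ahk3/ore12. The partners of the phytochromes (10 genes) included FHL, which helps carry phytochrome A into the nucleus and is 1 of the 3 genes most like PHYA over the 12 means (r 0.980). FHL rose by 3.52 in ein2/ore3 and 3.32 in ahk3/ore12 at 3 DAT, and its change in Col was -0.36 (adjusted p 0.14), though it had risen by 2.80 at 1 DAT in Col. TZP, a nuclear partner of phytochromes, fell in all genotypes, with changes of -2.93 in ein2/ore3, -3.72 in ahk3/ore12 and -3.55 in Col. PKS1, a cytoplasmic phytochrome substrate, changed by -0.99 in ein2/ore3, -0.11 in ahk3/ore12 (adjusted p 0.815) and -2.05 in Col. PKS4, its relative, rose by 1.31 in ein2/ore3 and by 1.45 in ahk3/ore12, but changed by -0.80 in Col (0.196). Of the 10 partners, 4 rose and 4 fell at 3 DAT in ein2/ore3, 4 rose and 2 fell in ahk3/ore12, and 0 rose and 5 fell in Col, with medians of 0.07, 0.08 and -1.09.

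Of the genes that PIFs activate in growth and shade (9 genes), 7 were higher and 1 was lower than in Col at 3 DAT in ein2/ore3, and 6 were higher in ahk3/ore12, where 3 were not called. At 1 DAT all 9 had risen in ein2/ore3 (4534 of all 32627 genes called higher) and in ahk3/ore12 (4430). In Col 5 of the 9 had risen at 1 DAT (4324 of all genes called higher). At 3 DAT 7 were still raised in ein2/ore3 and none had fallen, 5 were raised and 1 had fallen in ahk3/ore12, and 4 were raised and 4 had fallen in Col (medians 1.58, 1.02 and -0.39). IAA29, an auxin response repressor induced by shade, had a mean of 12.67 in ein2/ore3, 10.95 in ahk3/ore12 and 7.38 in Col at 3 DAT, and its changes since 0 DAT were 1.90, -0.18 and -4.12. IAA19, of the same family, was 2.92 higher in ein2/ore3 than in Col at 3 DAT (adjusted p 1.4e-05 by limma). Its mean of 6.44 in ahk3/ore12 stood beside 6.43 in Col, both low on the scale of the array. BEE1, a brassinosteroid-responsive bHLH factor, was 1.37 higher in ein2/ore3 and 4.23 higher in ahk3/ore12 than in Col. ST2A, a hydroxyjasmonate sulfotransferase, rose by 6.10 in ein2/ore3, 5.64 in ahk3/ore12 and 4.16 in Col. Of the 9 changes at 3 DAT, 7 were higher and 1 was lower in ein2/ore3 than in Col by the interaction (10.5% of all genes called higher), and 6 were higher in ahk3/ore12 (9.96%).

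Among the bHLH genes related to PIFs (8 genes), 4 rose and 2 fell at 3 DAT in ein2/ore3, 3 rose and 1 fell in ahk3/ore12, and 3 rose and 3 fell in Col. PIL1, a marker of the shade response, rose by 5.21 in ein2/ore3, 4.77 in ahk3/ore12 and 2.95 in Col. HFR1, which forms inactive dimers with PIFs, rose by 3.54, 3.46 and 2.20 in the same order of genotypes. PAR1, another bHLH inhibitor of PIFs, had changes in ein2/ore3 (0.41) and ahk3/ore12 (-0.10) that did not pass, and fell by 2.32 in Col. PAR2 changed by -1.38 in ein2/ore3, by -1.08 in ahk3/ore12 (adjusted p 0.0769) and by -2.46 in Col, with means of 6.13 in ein2/ore3 and 5.32 in Col at 3 DAT that are low on the scale of the array.

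Of the senescence and greening genes downstream of PIFs (8 genes), 6 rose and 1 fell at 3 DAT in ein2/ore3, and 6 rose and 2 fell in each of ahk3/ore12 and Col. ORE1, a NAC activator of senescence, rose by 5.61 in ein2/ore3, 2.6 in ahk3/ore12 and 3.06 in Col. In ein2/ore3 it started lower, at a mean of 6.12 at 0 DAT against 10.16 in Col, a difference of -4.04, and at 3 DAT it was still 1.48 lower. The mean of 6.12 is low on the scale of the array, and the rise of 5.61 starts from it. NYE1, the STAY-GREEN protein of chlorophyll breakdown, rose by 1.52 in ein2/ore3, 1.17 in ahk3/ore12 and 2.38 in Col. GLK2, an activator of chloroplast genes, changed by -0.69, -1.12 and -2.30 in the same order. ABI5, an abscisic acid response factor, rose by 1.83, 1.80 and 1.60, and its differences from Col were not called in either mutant at 3 DAT (adjusted p 0.477 and 0.611).

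In the COP1-SPA-HY5 module (13 genes), through which phytochromes also act, 2 rose and 6 fell at 3 DAT in ein2/ore3, 2 rose and 8 fell in ahk3/ore12, and 2 rose and 7 fell in Col. SPA1, a partner of the ubiquitin ligase COP1, changed by -1.62 in ein2/ore3, -2.14 in ahk3/ore12 and -2.30 in Col. SPA3 changed by -2.44, -1.95 and -2.51 in that order, and BBX22, a B-box partner of HY5, by -1.89, -2.18 and -2.49. HY5, the bZIP activator of photomorphogenesis, had a mean at 3 DAT of 8.32 in ein2/ore3, 9.54 in ahk3/ore12 and 10.38 in Col, where it had risen by 1.70. This gave -2.05 for ein2/ore3 against Col (adjusted p 0.000215) and -0.84 for ahk3/ore12 (0.0752).

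Of the other photoreceptors (8 genes), 2 rose and 1 fell at 3 DAT in ein2/ore3, none rose and 3 fell in ahk3/ore12, and none rose and 6 fell in Col. PHOT1, a blue-light receptor of phototropism, changed by 0.00 in ein2/ore3 (adjusted p 0.983), and fell by 0.31 in ahk3/ore12 and fell by 1.10 in Col. CRY1, a blue-light receptor, changed by -0.24 in ein2/ore3 (0.0601), -0.57 in ahk3/ore12 and -0.85 in Col. UVR8, the ultraviolet-B receptor, had changes of 0.11 in ein2/ore3 and -0.08 in ahk3/ore12 that did not pass, and fell by 0.56 in Col. FKF1, a blue-light receptor of the flowering pathway, changed by -0.20 in ein2/ore3 (0.59), -1.23 in ahk3/ore12 and -1.01 in Col. In Col at 3 DAT, transcripts of these 4 receptors had thus fallen, as had those of PHYC, PHYD and PHYE.

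**Figure D4:**
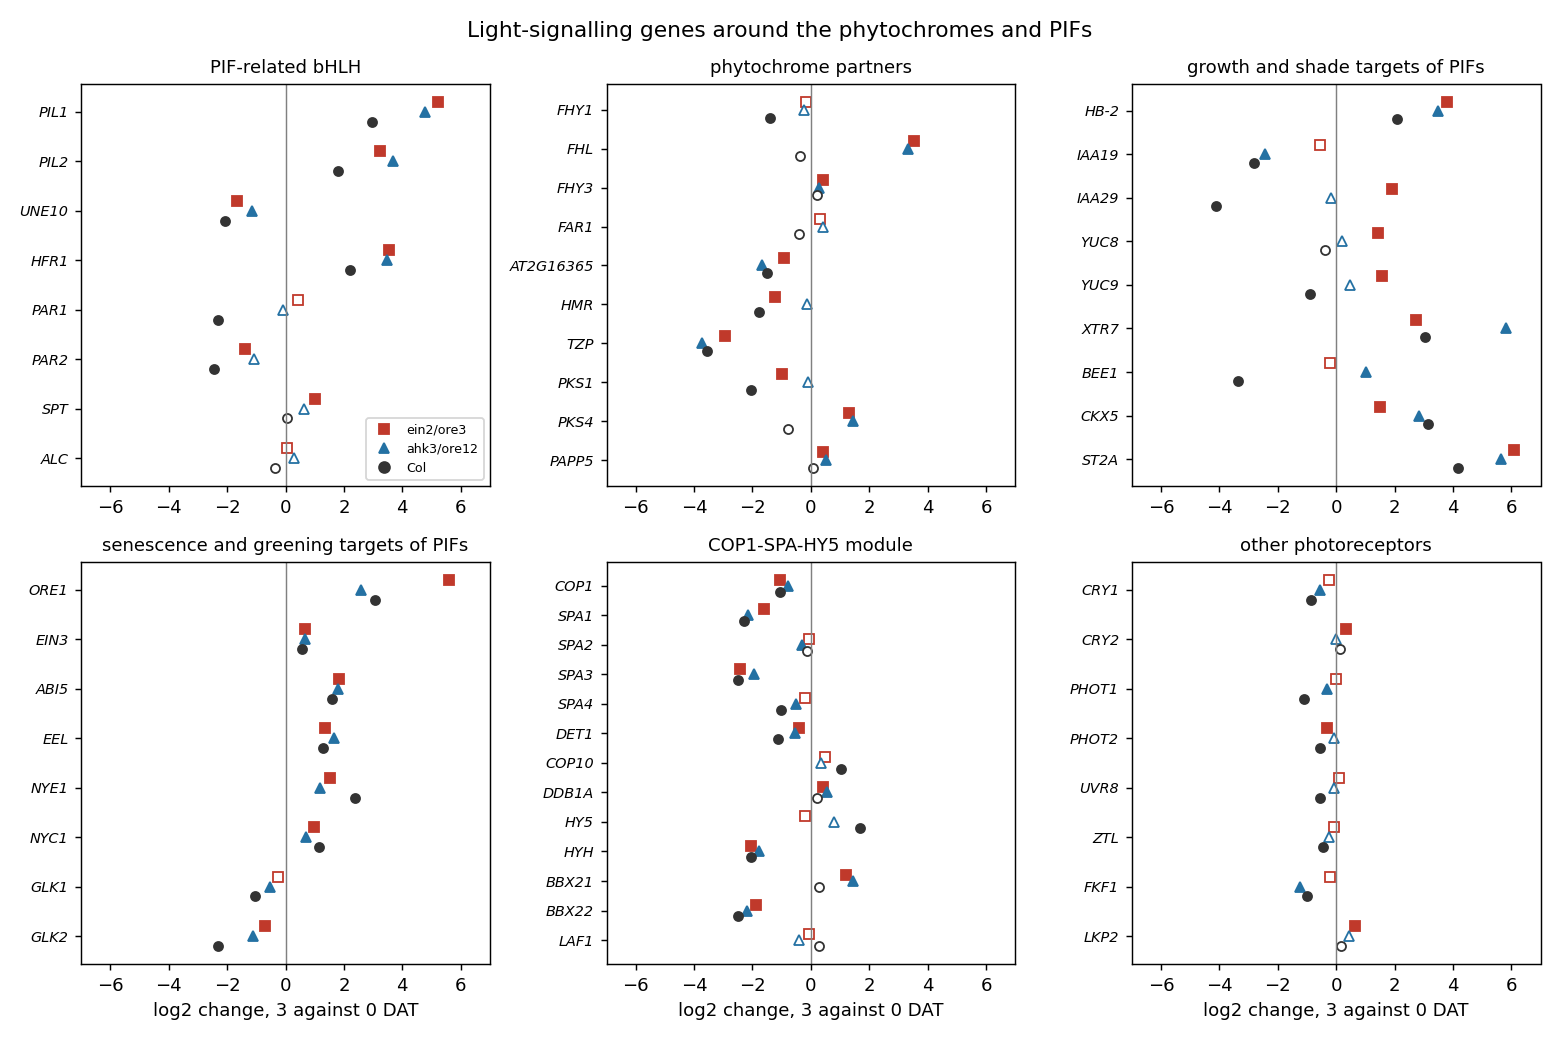
Log2 change at 3 against 0 DAT (horizontal axis, same range in every panel) of the genes of the 6 lists in ein2/ore3 (squares), ahk3/ore12 (triangles) and Col (circles). Filled points passed the FDR of 0.05. IAA29 lay at 1.90 in ein2/ore3 and -4.12 in Col, whereas SPA1, SPA3 and BBX22 of the COP1-SPA-HY5 module had negative changes in all 3 genotypes.

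Some of the 13 cell type markers also changed between 3 and 0 DAT. In ein2/ore3 1 rose and 5 fell (17.8% of all genes called higher and 14.6% lower). In ahk3/ore12 1 rose and 8 fell (20.4% and 13.9%), and in Col 1 rose and 8 fell (20.2% and 19.3%). At 3 against 0 DAT the mesophyll markers LHCB2.1 and RBCS1A changed by -1.46 and -1 in ein2/ore3, -1.45 and -0.96 in ahk3/ore12, against -3.68 and -2.20 in Col, and CA1 by -5.83, -6.46 and -6.46. RCA changed by -0.50 in ein2/ore3, -0.66 in ahk3/ore12 and -1.28 in Col. The phloem companion cell marker SUC2 changed by -0.19 in ein2/ore3, -0.73 in ahk3/ore12 and -2.16 in Col, the other marker of these cells, AHA3, by -0.06, 0.08 and -0.16, and the epidermal markers ATML1 by -0.71, -1.38 and -1.86, FDH by 0.01, -0.48 and -1.42, and PDF1 by -0.10, -0.26 and 0.23, in the same order of genotypes. The guard cell markers MYB60 and KAT1 changed by -0.61 and -0.48 in ein2/ore3, -0.74 and 0.09 in ahk3/ore12, against -0.94 and 0.04 in Col. The root marker PYK10 changed by 5.03 in ein2/ore3, 4.22 in ahk3/ore12 and 2.1 in Col, whereas the root marker WER stayed between 5.14 and 5.34 on average in the 3 genotypes at 3 DAT. The part of cell composition in the member values was not tested.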

How the data were processed

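Total RNA of leaves was hybridised as Cy3-labelled cDNA to NimbleGen arrays of the TAIR9 design, 1 array per sample, 24 arrays in 12 groups of 2. The authors exported each array with NimbleScan by the RMA algorithm (background correction, quantile normalization between arrays and median polish of the probes), and the deposited per-array values are linear intensity values, 1 per transcript variant. The authors then added the variants of each gene, and the deposited series table holds the log2 value of that sum for 32627 genes. It differed from the log2 of the summed deposited intensities by 0.00514 at most. Quantile normalization assumes a similar spread of all transcripts on every array, so a shift of most transcripts in 1 direction would not show.

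The log2 values were tested with limma 3.58.1 in R 4.3.3, with no further normalization or filter. Contrasts came from 12 group means over all 24 arrays, so that the groups shared 1 estimate of the spread. The Col time course was tested with a moderated F-test on the 8 Col arrays, and the genotype term with genotype plus time on the 16 arrays of a mutant and Col. P-values were adjusted by Benjamini-Hochberg over all genes in each comparison, and an FDR below 0.05 was called. No p-value refers to the gene lists alone.

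All 10 members are named. Of each list of related genes, up to 4 were named by size among those called at 3 against 0 DAT in Col or in a mutant against Col, and likeness was Pearson's r over the 12 condition means among genes with a range of at least 1. The members and lists were chosen with earlier results of these data known. Gene names came from a newer RefSeq annotation, which held 31993 of the loci.

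The replicate number is the slide, since the 12 arrays with the same number shared 1 slide. Over 66 pairs of groups the deviations of replicates from their group means correlated across genes with a median of 0.302, between -0.159 and 0.818, and over 0.1 in 47 pairs. The slide as a block was an alternative. Other alternatives were summed intensities, median centring, quantile normalization, leaving out the dimmest 25% of genes or each array in turn, an FDR of 0.01, ordinary F-tests as in the methods, and other sets of arrays in a fit. The values within each slide were added after seeing the data. The tests were run on simulated data first. Sequences of probes and promoters were not used here.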

Additional observations from a re-analysis of the deposited data

Results flagged for a closer look

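The dark change of a gene was singled out where the test of the difference between a mutant and Col, the change since 0 DAT in the mutant minus that in Col, passed an FDR of 0.05 by limma. This held for 20 differences of 8 genes in the fit without the slide as a block, and all were positive there. Of all genes, 5.67%, 11.1% and 16.2% were called at 1, 2 and 3 DAT in ein2/ore3. In ahk3/ore12 0.0429%, 5.67% and 13.3% were called. With the block, a PIF3 difference of -1.11 in ein2/ore3 at 1 DAT was also called (adjusted p 0.0135 by limma). Several of the 20 calls were lost without 1 array, as given above. For PIF1 they were 1.57, 2.17 and 2.96 at 1, 2 and 3 DAT in ein2/ore3, and 1.48 and 2.08 at 2 and 3 DAT in ahk3/ore12. For PIF5 they were 0.96 and 1.94 at 2 and 3 DAT in ein2/ore3, and 1.22 at 3 DAT in ahk3/ore12. PIF4 gave 0.82 at 2 DAT and 1.21 at 3 DAT in ein2/ore3, and PIF3 gave 1.18 at 3 DAT in ahk3/ore12. PHYA gave 0.65 and 1.04 at 2 and 3 DAT in ein2/ore3, and the same time points of ahk3/ore12 gave 0.55 and 0.87. At 3 DAT PHYB gave 0.85 in ein2/ore3 with 0.92 in ahk3/ore12, PHYE gave 0.91 in ein2/ore3 with 0.80 in ahk3/ore12, and PHYD gave 0.88 in ahk3/ore12. PIF7 and PHYC had no called difference. Both mutants were set against the same Col arrays, so the 2 sets of differences share them.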

How the results depend on the processing

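Of the called values of single genes, 95 stayed called without any 1 array and 40 were lost in at least 1 such fit, and none turned its sign in any alternative run. Median centring ended 6 of them and quantile normalization 1, whereas leaving out the dimmest genes, the slide as a block and the summed intensities ended none. The replicate block added 15 calls, and it changed no other call. With it the number of members called at 1 against 0 DAT in ein2/ore3 was 5 in place of 3, and that of the difference of change there 3 in place of 1. The shares of all genes given above come from the main fit, and none is given for the alternatives. Median centring gave 2 for the difference of change in ein2/ore3 at 1 DAT, 5 in place of 3 between the mutants at 2 DAT, and 1 in place of 2 for the genotype term of ahk3/ore12. That last number was 4 without the dimmest genes, 0 with the methods' F-test and 5 with an F-test over the 4 differences from Col. The causes were not tested. Leaving out 1 array gave 2 to 5 members for ein2/ore3 against Col at 1 DAT and 3 to 6 at 2 DAT, and 1 to 4 for ahk3/ore12 against Col at 2 DAT and 5 to 9 at 3 DAT. It gave 1 to 2 for the difference of change in ein2/ore3 at 1 DAT, 1 to 2 in ahk3/ore12 at 2 DAT and 4 to 8 at 3 DAT, 1 to 3 between the mutants at 2 DAT, and 0 to 5 for the genotype term of ahk3/ore12. For the Col time course 6 of the 9 genes passed an FDR of 0.01, and the methods' F-test ended the calls of PHYC (0.0536), PIF3 (0.0878) and PIF4 (0.0672). With 2 arrays a group, a lone array left in a group was assumed to vary like the others. All 10 members stayed among the 24466 genes kept when the dimmest were left out, but that filter uses the mean over all arrays and does not test single dim arrays. PIF7 lay lowest, down to 7.60, and its variants down to 6.48 and 6.57 after 0 DAT, against array minima of 4.54 to 4.64 and 3.81 on ein2/ore3 2 DAT replicate 2.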
